A study of Mus musculus with 24 samples.

Results

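Inhibitory checkpoint molecules are surface proteins that restrain T cells after antigen recognition. The 9 genes described here encode 7 receptors (Ctla4, Pdcd1, Lag3, Havcr2, Tigit, Btla and Cd160) and 2 ligands (Cd200 and Cd274), and were taken by name from the 54446 identifiers of a gene count table. Each symbol matched 1 Ensembl identifier, and all 9 were among the 15325 genes that passed the filter on low counts. The study asked how loss of Aim2, which encodes a cytosolic sensor of DNA, changes CD4+ T cells. Bulk mRNA was sequenced from CD4+ T cells of the spleen in 24 libraries. Of the 6 mice, 3 were wild-type C57BL6 (WT, labelled 1, 3 and 4) and 3 were Aim2-/- on the same background (labelled 1, 2 and 4); the deficiency was not restricted to T cells, and the mice were matched for sex and age, with no age given in the sources used here. Each mouse gave a library of unstimulated cells (0 h) and 1 each from cells exposed to anti-CD3 and anti-CD28, antibodies that stand in for antigen and costimulation, for 3, 6 and 24 h, so each of the 8 groups held 3 mice. Libraries labelled with the same genotype and number were taken as 1 mouse.

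CTLA-4 competes with the activating receptor CD28 for CD80 and CD86, and TIGIT competes with CD226 for the poliovirus receptor. PD-1, encoded by Pdcd1, carries tyrosine motifs that recruit phosphatases to the antigen receptor, and its ligand PD-L1, encoded by Cd274, is induced by interferons. BTLA and CD160 both bind HVEM, a receptor that also binds the cytokine LIGHT. LAG-3 binds MHC class II, TIM-3 (Havcr2) binds galectin-9 among other partners, and CD200 engages CD200R, found mainly on myeloid cells. In the spleen, regulatory T cells carry CTLA-4 and TIGIT constitutively, whereas most of the other receptors are known as markers of recent or repeated activation.

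Library totals were 19715161 to 21627018 counts, so that 3 counts corresponded to 0.139 to 0.152 CPM (counts scaled to a library of 1000000), and the lowest member value, 2.22 CPM for Cd160, lay above that. Aim2 itself was at 21.5, 74.9 and 67.4 CPM in WT mice 1, 3 and 4 at 0 h and at 15.7, 20.1 and 19.0 in Aim2-/- mice 1, 2 and 4. At 3 h the WT values were 16.98, 50.6 and 52.3, at 6 h 11.5, 33.0 and 32.5, and at 24 h 5.57, 34.0 and 38.6, against at most 15.1, 11.4 and 7.15 in Aim2-/- mice. The 4 libraries labelled WT 1 therefore went against their label, with Aim2 near the level of the Aim2-/- libraries at every time, and the member results and genotype differences that involve the WT group are also given without the mouse labelled WT 1. The defining genes of CD4+ T cells were high in every library, with Cd4 at 406 to 1045 CPM and Cd8a at no more than 4.25. The summed level of 5 myeloid markers at 0 h was 27.0 to 47.1 CPM in WT and 93.2 to 312 in Aim2-/- libraries, and that of 5 B cell markers 3.19 to 4.60 and 10.1 to 34.2. The highest value of each sum at every time came from Aim2-/- mouse 1, and at 0 h 2 of the 5 myeloid, 2 of the 5 B cell and 3 of the 3 basophil or mast cell markers were higher in Aim2-/- cells by the test used here.

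The 5′ regions of 8 of the 9 genes are held in the RefSeq table used here, as 300-base windows on GRCm38.p6 that run from 250 bases before to 50 after an annotated start. 4 of them are shown because these genes took the most different courses in the cells: Cd274 rose early, Havcr2 peaked at 6 h, Cd200 rose late and Ctla4 fell. Capitals mark matches, on either strand, to the NFAT core GGAAA (in the Cd274 and Ctla4 windows) or to the AP-1 motif TGANTCA (in the Havcr2 window).
Cd274, chr19:29367188-29367487, plus strand: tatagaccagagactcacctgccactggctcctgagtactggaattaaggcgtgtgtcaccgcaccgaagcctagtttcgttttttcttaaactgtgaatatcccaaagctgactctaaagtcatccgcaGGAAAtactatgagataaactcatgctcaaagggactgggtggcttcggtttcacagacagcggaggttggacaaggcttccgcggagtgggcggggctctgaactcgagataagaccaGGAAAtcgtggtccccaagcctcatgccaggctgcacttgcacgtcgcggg
Havcr2, chr11:46454681-46454980, plus strand: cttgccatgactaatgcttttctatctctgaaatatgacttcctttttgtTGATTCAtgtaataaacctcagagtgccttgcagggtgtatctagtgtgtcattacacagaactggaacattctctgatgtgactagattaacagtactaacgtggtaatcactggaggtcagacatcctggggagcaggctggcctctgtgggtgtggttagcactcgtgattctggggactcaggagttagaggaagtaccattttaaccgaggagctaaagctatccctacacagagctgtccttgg
Cd200, chr16:45409004-45409303, minus strand: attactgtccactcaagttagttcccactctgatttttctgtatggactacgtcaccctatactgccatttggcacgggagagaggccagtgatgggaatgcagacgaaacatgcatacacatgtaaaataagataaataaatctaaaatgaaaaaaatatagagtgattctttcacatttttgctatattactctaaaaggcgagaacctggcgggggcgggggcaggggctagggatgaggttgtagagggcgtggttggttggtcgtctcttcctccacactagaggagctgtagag
Ctla4, chr1:60908775-60909074, plus strand: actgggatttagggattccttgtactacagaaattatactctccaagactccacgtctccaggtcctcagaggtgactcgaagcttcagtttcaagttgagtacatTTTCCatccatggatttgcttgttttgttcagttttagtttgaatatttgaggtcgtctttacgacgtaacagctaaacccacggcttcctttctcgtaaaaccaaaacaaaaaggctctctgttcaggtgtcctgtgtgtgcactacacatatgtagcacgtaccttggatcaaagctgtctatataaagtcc

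GGAAA was found in 5 of the 9 member windows (Ctla4, Pdcd1, Cd160, Tigit and Cd274; Cd160 has 2 windows), and in 61.3% of all 32851 windows. In Pdcd1 it occurred in 2 adjacent copies on the opposite strand, beginning 28 and 23 bases before the start. TGANTCA matched in the Havcr2 window alone, 200 bases before the start, against 7.81% of all windows, and the STAT motif TTCNNNGAA matched in 1 Cd160 window, against 8.30%. The interferon-type motif, GAAA and GAAA with 2 bases between (3.44% of all windows), and the NF-kB-type motif, GGGA and TTCC with 2 bases between (1.47%), were not in any member window, which says only that these letters are absent from these 300 bases. No motif overlapped another of a different kind.

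Over the 24 h the 9 genes separated by the time of their highest value. Ctla4 was highest at 0 h in all 6 mice. Cd274 was highest at 3 h in 5 mice and at 6 h in the mouse labelled WT 1. Havcr2 and Cd160 were highest at 6 h in all 6 mice, and Lag3, Btla and Cd200 at 24 h in all 6. Pdcd1 was highest at 6 h in 4 mice and at 0 h in 2, and Tigit at 6 h in 4, with 1 mouse each at 0 and 3 h.

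**Figure D1:**
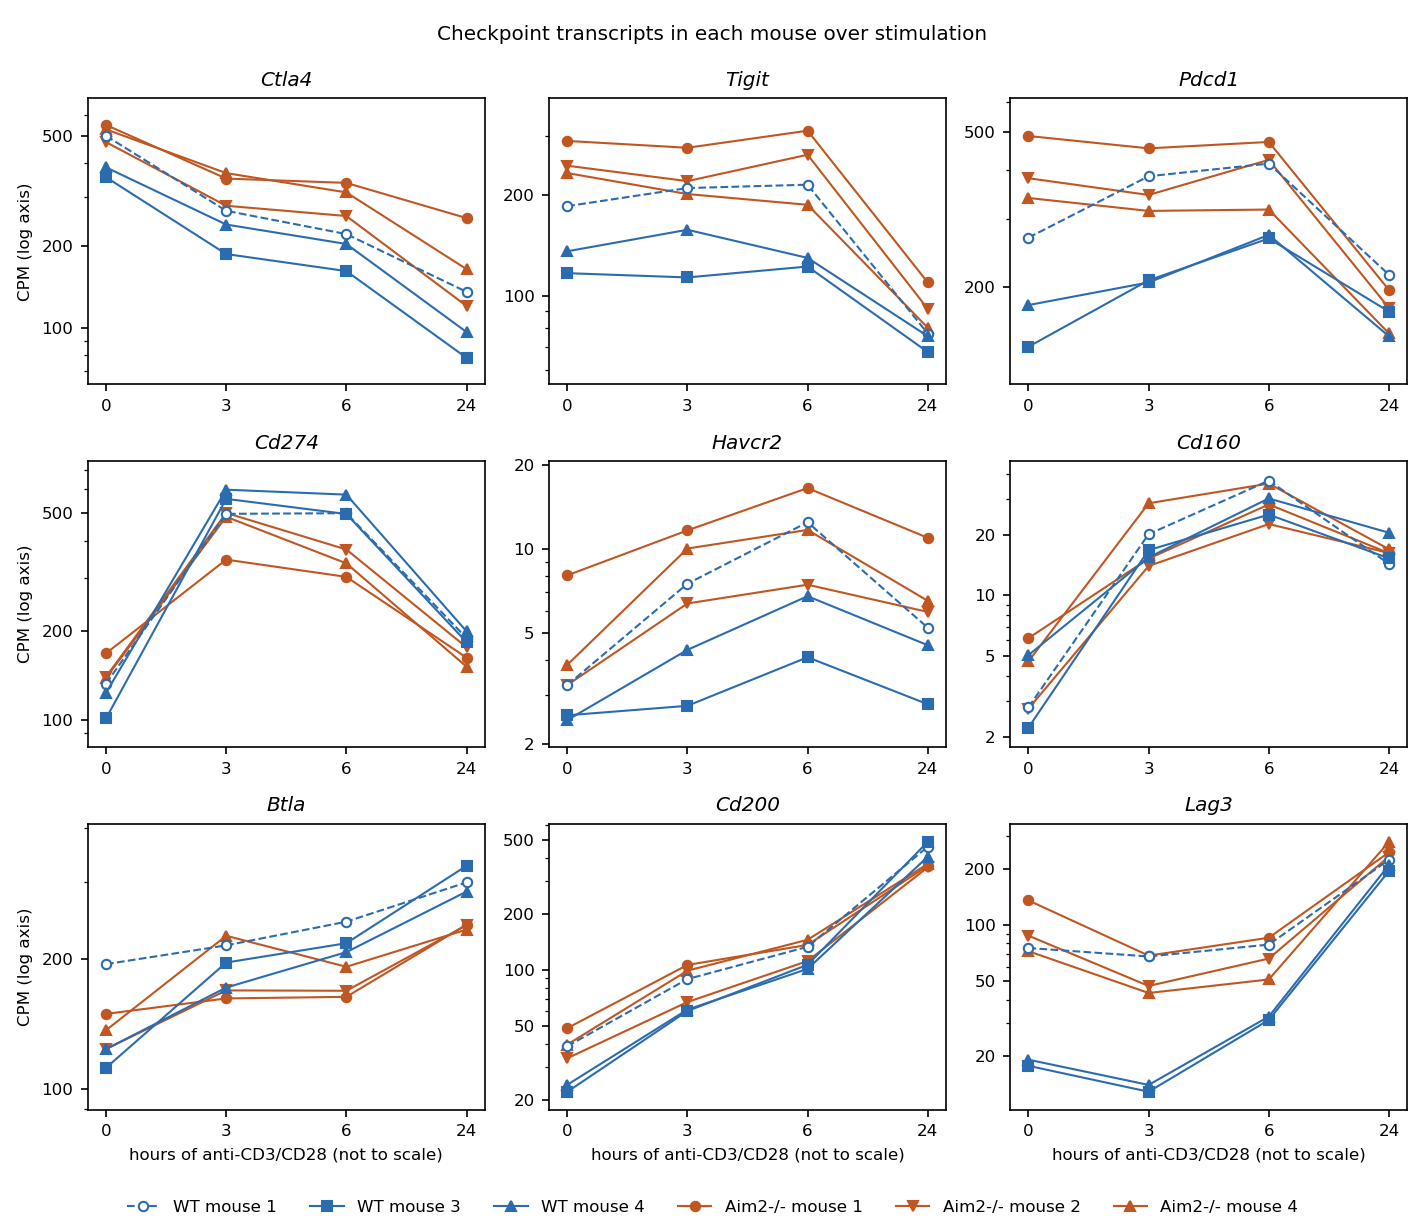
Level of each gene in CPM (log axis, scale set per gene) in each of the 6 mice at 0, 3, 6 and 24 h of stimulation; blue lines are WT mice, orange lines Aim2-/- mice, and the dashed line with open circles is the mouse labelled WT 1. Ctla4 falls from 0 h in every mouse, Cd200 rises at each time, and the Lag3 value of the mouse labelled WT 1 at 0 h, 75.4 CPM, lies with the Aim2-/- mice and not with the other WT mice at 17.7 and 19.1.

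Stimulation changed 5 of the 9 genes by 3 h in either genotype (edgeR quasi-likelihood test, adjusted p below 0.05), beside 32.6% of all genes tested in WT and 30.7% in Aim2-/- cells. At 6 h the count was 7 in WT cells and 5 in Aim2-/- cells, beside 51.1% and 51.2%. At 24 h it was 7 in each, beside 71.4% and 70.3%. These counts are from the fit without the mouse as a block. With that block, Havcr2 and Pdcd1 in WT cells and Havcr2 and Lag3 in Aim2-/- cells also passed at 3 h. Btla also passed at 6 h in Aim2-/- cells, and Havcr2 at 24 h in both genotypes. The share of all genes called with the block against 0 h is not given. The median log2 fold change of the members in WT cells was 0.44, 0.70 and 0.68 at 3, 6 and 24 h, against 0.02, 0.02 and -0.01 over all genes tested, and in Aim2-/- cells 0.44, 0.35 and 0.63, against 0.02, 0.08 and 0.03. Between 3 and 6 h 2 members passed in WT cells (beside 25.7% of all genes) and 1 in Aim2-/- cells (23.3%), or 5 and 3 with the mouse as a block (36.1% and 35.5% of all genes). The members added by the block were Havcr2, Pdcd1 and Lag3 in WT cells (0.66 ± 0.19, 0.29 ± 0.10 and 0.79 ± 0.29, adjusted p of 0.011 to 0.037) and Cd200 and Cd160 in Aim2-/- cells (0.54 ± 0.12 and 0.61 ± 0.21, adjusted p = 0.0015 and 0.028). Between 6 and 24 h 8 members changed in each genotype, 3 upward and 5 downward, beside 57.6% of all genes in WT (29.6% upward, 28.0% downward) and 54.3% in Aim2-/- cells (27.4% and 27.0%). When the mouse labelled WT 1 was left out, WT cells had counts of 5, 7 and 7 at 3, 6 and 24 h, as with it, beside 22.4%, 43.7% and 64.1% of all genes. At 3 and 24 h they were the same genes, and at 6 h Lag3 (0.79 ± 0.27 on the log2 scale, adjusted p = 0.025) took the place of Havcr2. Leaving that mouse out gave WT values from 0 to 24 h of -2.08 ± 0.26 for Ctla4 (adjusted p = 1.6e-06), -0.82 ± 0.22 for Tigit (adjusted p = 0.0034), 1.38 ± 0.14 for Btla (adjusted p = 2.1e-07), 4.27 ± 0.21 for Cd200 (adjusted p = 7.1e-11) and 0.77 ± 0.16 for Cd274 (adjusted p = 5.7e-04), and 0.01 ± 0.21 for Pdcd1, which did not pass (adjusted p = 0.98). At 3 h it gave -0.80 ± 0.25 for Ctla4 (adjusted p = 0.027), 0.64 ± 0.14 for Btla (adjusted p = 0.0033) and 2.37 ± 0.17 for Cd274 (adjusted p = 1.1e-07), and at 6 h 0.75 ± 0.21 for Pdcd1 (adjusted p = 0.0072) and 2.92 ± 0.41 for Cd160 (adjusted p = 1.8e-05).

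Ctla4 (ENSMUSG00000026011, chr1:60887000-60915832, plus strand on GRCm38) stood at 502, 355 and 385 CPM in WT mice 1, 3 and 4 and at 550.0, 476 and 529.8 in Aim2-/- mice 1, 2 and 4 before stimulation. At 24 h the values were 136, 78.1 and 96.9 in WT and 252, 121 and 164 in Aim2-/- cells. Every 24 h value lay below every 0 h value of its genotype. The level fell in WT cells by 0.84 at 3 h (adjusted p = 0.0063) and by 2.00 at 24 h (adjusted p = 1.3e-07) on the log2 scale. In Aim2-/- cells it fell by 0.64 (adjusted p = 0.035) and by 1.54 (adjusted p = 4.6e-06). The 3 h call in Aim2-/- cells was lost in 10 of 40 alternatives, among them each fit without 1 of the Aim2-/- mice, with an adjusted p of up to 0.13.

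Tigit (ENSMUSG00000071552, chr16:43648867-43664146, minus strand) stayed near its starting level for 6 h and was lower at 24 h. In WT cells the values were 185, 117 and 136 CPM at 0 h, 215, 122 and 129.6 at 6 h and 77.0, 67.8 and 75.6 at 24 h. In Aim2-/- cells they were 290.0, 245 and 232, 311, 264 and 187 and 109, 91.3 and 80.1. The groups at 24 h did not overlap those at 0 h, with log2 fold changes of -0.99 ± 0.24 in WT (adjusted p = 8.9e-04) and -1.45 ± 0.24 in Aim2-/- cells (adjusted p = 1.6e-05).

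Pdcd1 (ENSMUSG00000026285, chr1:94038305-94052553, minus strand) was higher at 6 h than at 0 h in WT cells and lower at 24 h than at 0 h in Aim2-/- cells. In WT cells it was at 268, 141 and 180.0 CPM at 0 h, 386, 208 and 206 at 3 h, 416, 267 and 273 at 6 h and 215, 173 and 149.6 at 24 h. The Aim2-/- values were 489.6, 381 and 339, 455, 345 and 314, 473, 425 and 317 and 197, 177 and 152. From 0 to 3 h it was higher in all 3 WT mice and lower in all 3 Aim2-/- mice, and the WT change passed only with the mouse as a block (0.43 ± 0.10, adjusted p = 0.0014, against 0.21 without it). The 6 h value in WT cells passed the test (0.70 ± 0.26 on the log2 scale, adjusted p = 0.03), although the groups overlapped and the call was lost in 6 of 40 alternatives, among them the fits without the WT library of mouse 3 or mouse 4 at 0 h or of the mouse labelled WT 1 at 6 h (adjusted p of up to 0.18). In Aim2-/- cells it fell below its starting level by 24 h (-1.20 ± 0.26, adjusted p = 3.7e-04), whereas the WT value of -0.13 ± 0.26 did not pass the test (adjusted p = 0.67).

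Lag3 (ENSMUSG00000030124, chr6:124904361-124911705, minus strand), a CD4-like receptor, dipped before it rose. In WT cells its values were 75.4, 17.7 and 19.1 CPM at 0 h, 68.0, 12.9 and 14.0 at 3 h, 78.7, 31.1 and 32.5 at 6 h and 223, 194 and 209 at 24 h. In Aim2-/- cells they were 135, 87.7 and 72.5, 68.6, 47.3 and 43.4, 85.6, 66.2 and 51.2 and 245, 232 and 278. The lowest of the 4 times was 3 h in every mouse. The 3 h value of -0.89 ± 0.54 in Aim2-/- cells (adjusted p = 0.24) passed with the mouse as a block (-0.88 ± 0.27, adjusted p = 0.013), that of -0.24 ± 0.55 in WT cells in neither fit (adjusted p = 0.79 and 0.44), and by 24 h the 6 mice lay within 194 to 278 CPM, from 17.7 to 135 at the start. The log2 fold change from 0 to 24 h was 2.48 ± 0.56 in WT cells (adjusted p = 5.2e-04) and 1.35 ± 0.54 in Aim2-/- cells (adjusted p = 0.03). Without the mouse labelled WT 1 the WT value was 3.45 ± 0.28, and the call in Aim2-/- cells was lost without the 0 h library of mouse 2 or 4 or the 24 h library of mouse 4 (adjusted p of up to 0.19). At 0 h the 3 WT values spanned a wider range than at 24 h, with the mouse labelled WT 1 far above the other 2.

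Havcr2 (ENSMUSG00000020399, chr11:46454935-46481255, plus strand) was the scarcest member per length in 7 of the 8 groups. At 0 h it was at 3.25, 2.53 and 2.43 CPM in WT and 8.03, 3.25 and 3.84 in Aim2-/- cells, and at 6 h at 12.5, 4.09 and 6.76 and 16.5, 7.44 and 11.7. The 6 h values were above the 0 h value of the same mouse in all 6 mice. At 3 h they were 7.50, 2.74 and 4.34 and 11.6, 6.37 and 10.02, and at 24 h 5.22, 2.77 and 4.51 and 10.9, 5.94 and 6.51. The log2 fold change at 6 h was 1.50 ± 0.45 in WT (adjusted p = 0.0079) and 1.24 ± 0.43 in Aim2-/- cells (adjusted p = 0.022). The WT call was lost without the mouse labelled WT 1 (1.13 ± 0.49, adjusted p = 0.073) or without mouse 4, and the Aim2-/- call without mouse 2, without mouse 4 or without the 6 h library of mouse 1 (adjusted p of up to 0.15). With the mouse as a block Havcr2 passed at every time against 0 h, by 0.75 ± 0.21 at 3 h (adjusted p = 0.0073) and 0.58 ± 0.22 at 24 h (adjusted p = 0.021) in WT cells and by 0.94 ± 0.19 (adjusted p = 4.7e-04) and 0.67 ± 0.19 (adjusted p = 0.004) in Aim2-/- cells. It then also fell from 6 to 24 h, by 0.83 and 0.59 on the log2 scale (adjusted p = 9.8e-04 and 0.0084). The highest Havcr2 value at each time came from Aim2-/- mouse 1, the mouse whose summed myeloid markers were also highest at 0 h; Havcr2 is expressed by myeloid cells too, and the part of these cells in its level was not tested.

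Cd160 (ENSMUSG00000038304, chr3:96798763-96829351, minus strand), a glycolipid-anchored receptor for HVEM, rose from 2.22 to 5.07 CPM at 0 h to 25.1 to 37.0 at 6 h in WT cells and from 2.76 to 6.15 to 22.5 to 35.7 in Aim2-/- cells. This was a log2 fold change of 3.19 ± 0.32 (adjusted p = 5.6e-08) and 2.66 ± 0.31 (adjusted p = 5.9e-07), with no overlap between the times. By 24 h it had fallen again by 0.88 in WT and by 0.81 in Aim2-/- cells on the log2 scale from 6 h (adjusted p = 0.013 and 0.023). The fall in WT cells did not pass without the mouse labelled WT 1 (-0.63 ± 0.36, adjusted p = 0.17), nor without its 6 h or 24 h library alone. The fall in Aim2-/- cells did not pass without the 6 h library of mouse 4 or without any 1 of the 24 h libraries (adjusted p of up to 0.12).

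Btla (ENSMUSG00000052013, chr16:45224315-45257670, plus strand), the other receptor for HVEM, rose more slowly. At 0 h it was at 194, 112 and 124 CPM in WT and 149, 124 and 137 in Aim2-/- cells, and at 24 h at 299.8, 327 and 285 and 239, 239 and 233. The log2 fold change at 24 h was 1.08 ± 0.16 (adjusted p = 3.0e-06) and 0.80 ± 0.16 (adjusted p = 1.3e-04), with every 24 h value above every 0 h value. The 3 h calls were weak, at 0.44 and 0.44 with an adjusted p of 0.038 in each genotype, and were lost in 12 and 7 of 40 alternatives. At 6 h the Aim2-/- change passed with the mouse as a block (0.35 ± 0.12, adjusted p = 0.018) and not without it (adjusted p = 0.066).

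Cd200 (ENSMUSG00000022661, chr16:45382135-45409053, minus strand), which encodes an immunoglobulin-family ligand, had the greatest fold change of the members at 24 h in either genotype. It was at 38.9, 22.2 and 24.2 CPM in WT cells at 0 h, 60.2 to 89.3 at 3 h, 101 to 133 at 6 h and 459, 488 and 406 at 24 h. The Aim2-/- values were 48.7, 33.6 and 39.7 at 0 h, 67.3 to 106 at 3 h, 112 to 145 at 6 h and 363, 356 and 371 at 24 h. The level at 24 h was 15.9-fold that at 0 h in WT cells (log2 3.99 ± 0.23, adjusted p = 2.3e-12) and 8.93-fold in Aim2-/- cells (log2 3.16 ± 0.22, adjusted p = 5.3e-11). Cd200 and Btla lie 124 kb apart on chromosome 16, and their levels were the closest pair for either gene among the members (Pearson r = 0.88 over the 24 libraries, which share the time course).

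Cd274 (ENSMUSG00000016496, chr19:29367455-29388095, plus strand), the ligand of PD-1, rose at once and returned. In WT cells it was at 132, 101 and 123 CPM at 0 h, 496, 557 and 599 at 3 h, 498, 495 and 576 at 6 h and 189, 183 and 199 at 24 h. In Aim2-/- cells it was at 167, 139 and 138, 347, 499.5 and 485, 304, 376 and 337 and 162, 175 and 151. At 3 h every value lay above every 0 h value, by 4.64-fold in WT (log2 2.21 ± 0.14, adjusted p = 3.8e-10) and 2.99-fold in Aim2-/- cells (log2 1.58 ± 0.13, adjusted p = 3.6e-08). At 24 h WT cells were still above their start (0.68 ± 0.13, adjusted p = 9.7e-05), while the Aim2-/- groups overlapped (0.13 ± 0.13, adjusted p = 0.37).

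Levels of different genes were compared only per kilobase of annotated exon. Summed in this way, the 9 genes stood at 542 ± 140.5 CPM per kb in WT cells at 0 h (SD, n = 3), 699 ± 132 at 6 h and 602 ± 38.7 at 24 h, and at 854 ± 109, 848 ± 111 and 622 ± 50.4 in Aim2-/- cells. The WT mice 1, 3 and 4 were at 699, 429.8 and 496 at 0 h, 849, 599 and 649 at 6 h and 645, 589.7 and 571 at 24 h, so that the mouse labelled WT 1 was the highest WT mouse at each of these times. The composition of the pool also turned over. Ctla4, Tigit and Pdcd1 together made up 81.1% ± 1.41 of the summed level in WT cells at 0 h and 36.0% ± 3.01 at 24 h, and 83.2% ± 0.891 and 43.1% ± 4.73 in Aim2-/- cells. The share of Cd200, Lag3 and Btla was 12.3% ± 2.36 and 54.0% ± 2.72 at these times in WT cells, and 11.5% ± 0.852 and 48.2% ± 4.36 in Aim2-/- cells. In the other 2 WT mice the first share was 81.9% in both at 0 h and 33.4% and 35.3% at 24 h, and the second 11.2% and 10.6% and then 56.9% and 53.5%. Cd274 alone took 23.6% ± 5.92 at 3 h in WT and 15.0% ± 3.86 in Aim2-/- cells.

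At 0 h Ctla4 (178 CPM per kb) and Tigit (159) led in WT cells, and Tigit (278), Ctla4 (223) and Pdcd1 (209) in Aim2-/- cells. At 24 h the order in WT cells began with Cd200 (136), Lag3 (99.05), Pdcd1 (92.9) and Btla (89.6), and in Aim2-/- cells with Lag3 (119), Cd200 (109) and Tigit (102). Cd160 and Havcr2 held the last 2 places in all 8 groups, at no more than 11.6 CPM per kb. Neighbours in these orders were not tested against each other, and per-length levels depend on the exon lengths annotated.

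**Figure D2:**
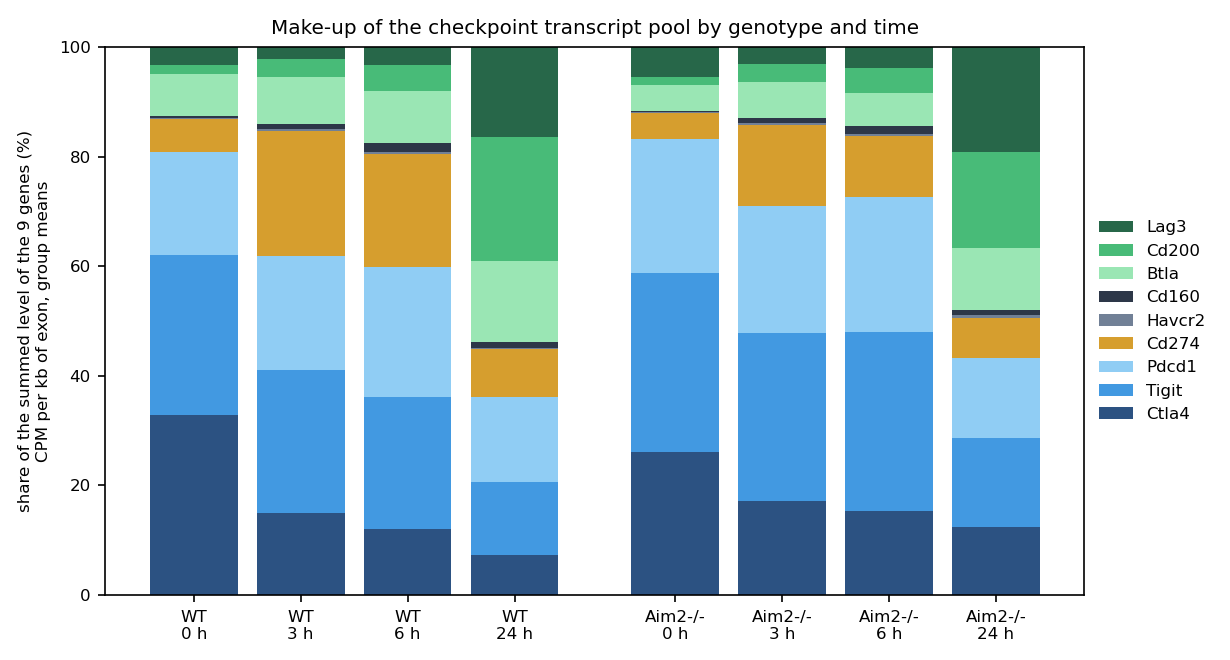
Share of each gene in the summed level of the 9 genes, from group means of CPM per kb of exon (3 mice per group), for WT cells on the left and Aim2-/- cells on the right at 0, 3, 6 and 24 h; blue shades are Ctla4, Tigit and Pdcd1, yellow is Cd274 and green shades are Btla, Cd200 and Lag3. Between 0 and 24 h the blue part shrinks (81.1% and 36.0% as the mean over WT mice, 83.2% and 43.1% over Aim2-/- mice), while the green part grows.

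Before stimulation Pdcd1 and Tigit were higher in Aim2-/- cells. These 2 of the 9 genes passed the test at 0 h, beside 5.23% of all genes tested. Pdcd1 was at 403 ± 77.5 CPM (SD, n = 3) in Aim2-/- and 196 ± 65.3 in WT cells, a ratio of 2.05 (log2 1.04 ± 0.26, edgeR adjusted p = 0.03). Tigit was at 256 ± 30.4 and 146 ± 35.3, a ratio of 1.75 (log2 0.81 ± 0.24, adjusted p = 0.049). For both genes every Aim2-/- mouse lay above every WT mouse, as it also did for Cd274 (3 of 9 members without overlap, beside 28.5% of all genes). An exact two-sided permutation test gave p = 0.1 for each of these 3, the smallest that 3 mice against 3 allow.

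These calls were close to the threshold. The Pdcd1 call was lost without the 0 h library of WT mouse 3 or 4 or of Aim2-/- mouse 1, with a B cell marker score as a term and with the libraries of 0 h fitted alone (adjusted p of up to 0.19). The Tigit call was lost in 25 of 41 alternatives (up to 0.25). Without the mouse labelled WT 1 the differences were greater, at 1.33 ± 0.20 for Pdcd1 (adjusted p = 0.0014) and 1.02 ± 0.20 for Tigit (adjusted p = 0.0089), and 4 members passed, beside 5.77% of all genes. The 2 others were Lag3, at 2.42 ± 0.26 or 5.35-fold (adjusted p = 7.7e-05) against 1.40 ± 0.55 with all mice (adjusted p = 0.13), and Cd200, at 0.81 ± 0.18 (adjusted p = 0.016) against 0.52 ± 0.21 (adjusted p = 0.14). With the mouse as a random effect and all mice kept, Lag3 also passed (1.68 ± 0.41, adjusted p = 0.017), which made 3 members beside 8.25% of all genes.

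The size of the Lag3 difference depended on the mouse labelled WT 1. With that mouse kept, the call at 0 h depended on the fit. Lag3 passed with the mouse as a random effect, with the mouse number as a block (1.38 ± 0.35, adjusted p = 0.0069) and without a filter. At 0 h the WT values were 17.7 and 19.1 CPM in mice 3 and 4 and 75.4 in the mouse labelled WT 1, within the Aim2-/- range of 72.5 to 135. The mouse labelled WT 1 was nearer to the Aim2-/- mean than to the mean of the other WT mice for 5, 8, 6 and 3 of the 9 members at 0, 3, 6 and 24 h. Over all genes tested this held for 43.9%, 55.2%, 38.0% and 35.9%.

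At 3 h no member passed the edgeR test between the genotypes with all mice, beside 0.294% of all genes. Of the 9, 4 had an unadjusted p under 0.05 (Cd274, Havcr2, Ctla4 and Tigit), beside 2351 of all 15325 genes, and none passed in DESeq2 or limma-voom. Lag3 was at 0.75 ± 0.55 (adjusted p = 0.53), Tigit at 0.54 ± 0.23 (adjusted p = 0.28), Pdcd1 at 0.48 ± 0.26 (adjusted p = 0.38) and Ctla4 at 0.53 ± 0.23 (adjusted p = 0.27). The Ctla4 groups did not overlap, 1 of 9 members beside 15.1% of all genes. Without the mouse labelled WT 1, 3 members passed, beside 2.71% of all genes, namely Lag3 (1.98 ± 0.26, adjusted p = 6.9e-04), Pdcd1 (0.84 ± 0.19, adjusted p = 0.03) and Tigit (0.78 ± 0.20, adjusted p = 0.047).

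At 6 h Cd274 was lower and Tigit higher in Aim2-/- cells. Cd274 was at 339 ± 36.1 CPM in Aim2-/- and 523 ± 45.7 in WT cells (SD, n = 3; log2 -0.63 ± 0.13, adjusted p = 0.0078), and every Aim2-/- mouse lay below every WT mouse. Tigit was at 254 ± 62.8 and 155 ± 51.3 (log2 0.71 ± 0.23, adjusted p = 0.046), with the mouse labelled WT 1 inside the Aim2-/- range. These were 2 of 9 members, beside 15.8% of all genes. Ctla4 was higher in every Aim2-/- mouse, at 338, 256 and 312 CPM against 220.3, 162 and 203, and did not pass (0.63 ± 0.23, adjusted p = 0.058), although DESeq2 called it with all mice (0.60 ± 0.22, adjusted p = 0.034). Btla was lower in every one, at 163, 169 and 192 against 243, 217 and 207, and did not pass either (-0.35 ± 0.16, adjusted p = 0.12). Members without overlap numbered 3 of 9, beside 35.6% of all genes.

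The Cd274 call at 6 h did not rest on the mouse labelled WT 1, without which it was -0.66 ± 0.15 (adjusted p = 0.014). It was lost without the 6 h library of Aim2-/- mouse 1 or without WT mouse 4 at all times (adjusted p of up to 0.068). The Tigit call was lost in 22 of 41 alternatives (up to 0.24). Without the mouse labelled WT 1, Tigit (1.01 ± 0.20, adjusted p = 0.0095), Lag3 (1.09 ± 0.24, adjusted p = 0.015) and Ctla4 (0.73 ± 0.23, adjusted p = 0.05) passed beside Cd274, which made 4 members beside 11.4% of all genes. With the mouse as a random effect and all mice kept, Ctla4 passed as well (0.64 ± 0.19, adjusted p = 0.021), for 3 members beside 20.4%.

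At 24 h no member passed the edgeR test, beside 0.666% of all genes. An unadjusted p under 0.05 was found for 2 (Ctla4 and Btla), beside 3134 of all 15325 genes. DESeq2 called 1 member and limma-voom none, and the share of all genes called in these fits is not given. The groups nevertheless did not overlap for 6 of the 9 members, beside 21.3% of all genes, with Lag3, Havcr2 and Tigit higher and Btla, Cd200 and Cd274 lower in Aim2-/- cells. Cd200 was at 363 ± 7.74 CPM in Aim2-/- and 451 ± 41.8 in WT cells (log2 -0.31 ± 0.20, adjusted p = 0.38), Btla at 237 ± 3.37 and 304 ± 21.2 (-0.36 ± 0.16, adjusted p = 0.2), and Havcr2 at 7.80 ± 2.74 and 4.17 ± 1.26 (0.90 ± 0.44, adjusted p = 0.25). Ctla4 stood at 0.79 ± 0.23 (adjusted p = 0.087) and passed without the mouse labelled WT 1 (1.03 ± 0.23, adjusted p = 0.043, 1 member beside 1.05% of all genes). It also passed in DESeq2 with all mice (0.76 ± 0.22, adjusted p = 0.022) and without the 24 h library of Aim2-/- mouse 2.

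**Figure D3:**
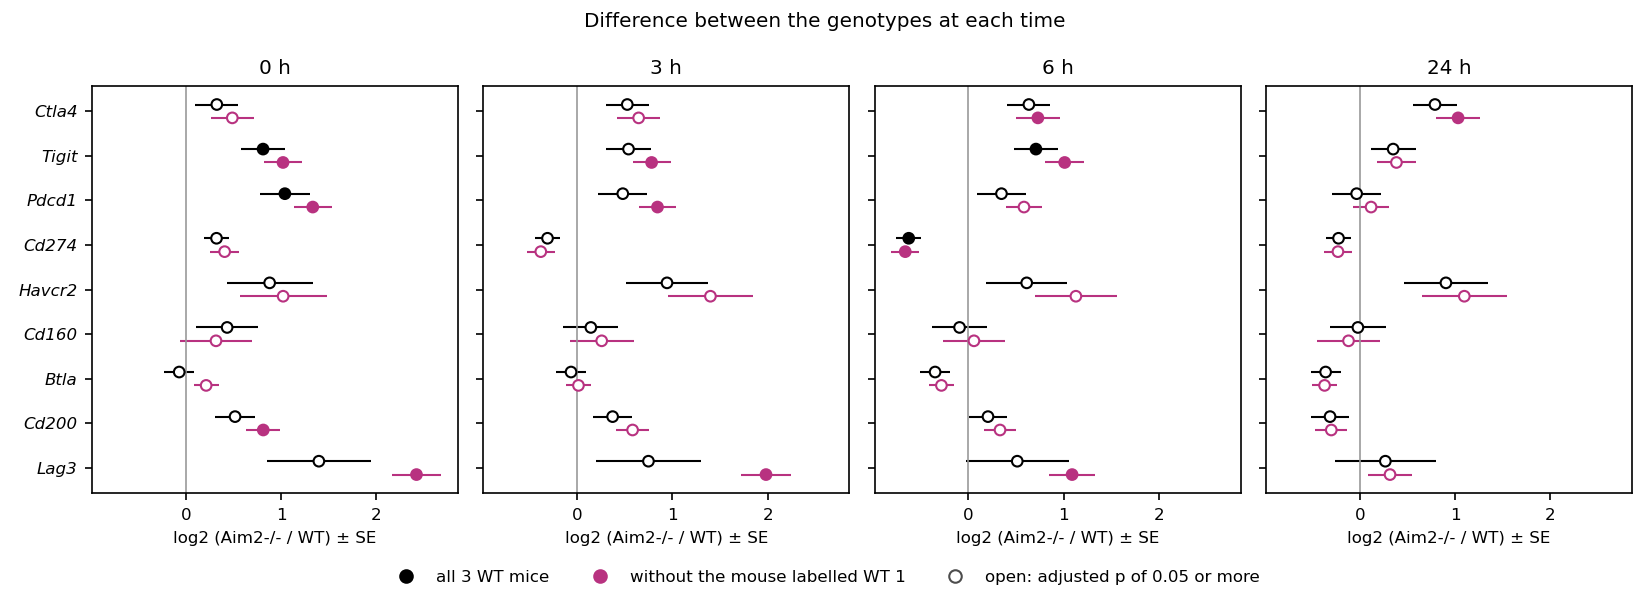
Fitted log2 difference between Aim2-/- and WT cells (± SE) for each gene at 0, 3, 6 and 24 h, with all 3 WT mice (black) and without the mouse labelled WT 1 (pink); filled symbols passed the edgeR test at an adjusted p below 0.05, open symbols did not. Lag3 moves most between the fits, from 1.40 to 2.42 at 0 h, while Cd274 stays lower in Aim2-/- cells at 6 h in both.

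With the counts of each animal added over the 4 times, no member passed the edgeR test, beside 0.0117% of the 17163 genes tested there. An unadjusted p under 0.05 was found for 5 (Cd274, Ctla4, Lag3, Btla and Tigit), beside 4004 of these 17163 genes. Tigit was at 0.66 ± 0.21 (adjusted p = 0.15), Lag3 at 0.55 ± 0.22 (adjusted p = 0.2), Ctla4 at 0.52 ± 0.16 (adjusted p = 0.15), Pdcd1 at 0.51 ± 0.22 (adjusted p = 0.22) and Cd274 at -0.33 ± 0.09 (adjusted p = 0.14). Without the mouse labelled WT 1, Lag3 passed (0.85 ± 0.11, adjusted p = 0.031), beside 0.854% of all genes. In DESeq2 with all mice 3 members passed, Tigit (0.65 ± 0.21), Ctla4 (0.51 ± 0.16) and Cd274 (-0.34 ± 0.10). The share of all genes that DESeq2 called there is not given, so this count is not read as a result about the members.

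The responses of the genotypes to stimulation were compared directly by an interaction term. Without a block no member passed at 3, 6 or 24 h, beside 0%, 0.0261% and 0% of all genes. At an unadjusted p under 0.05 there were 1, 1 and 3 members, beside 653, 2019 and 1825 of all 15325 genes. None passed in limma-voom, and DESeq2 called Cd274 at 6 h, which also came nearest here (-0.95 ± 0.18, Aim2-/- response minus WT response, adjusted p = 0.052). The libraries of a mouse deviated together from their group means, and with the mouse as a block 2 members passed at 6 h, beside 4.68% of all genes. These were Cd274 (-0.96 ± 0.16, adjusted p = 0.0098) and Pdcd1 (-0.71 ± 0.14, adjusted p = 0.011). At 24 h 3 passed, beside 2.77% of all genes, namely Pdcd1 (-1.10 ± 0.14, adjusted p = 8.8e-04), Cd200 (-0.85 ± 0.18, adjusted p = 0.016) and Lag3 (-1.47 ± 0.39, adjusted p = 0.044). Each of these responses was less upward, or more downward, in Aim2-/- cells. The interactions share their 0 h libraries with the genotype differences before stimulation, which were 1.04 ± 0.26 for Pdcd1 (adjusted p = 0.03) and, without passing, 1.40 ± 0.55 for Lag3 and 0.52 ± 0.21 for Cd200 (adjusted p = 0.13 and 0.14). Without the mouse labelled WT 1 and without a block, Lag3 passed at 24 h (-2.10 ± 0.34, adjusted p = 0.023), beside 0.102% of all genes. At 24 h Pdcd1 stood at 175 ± 22.4 CPM in Aim2-/- and 179 ± 33.3 in WT cells.

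**Figure D4:**
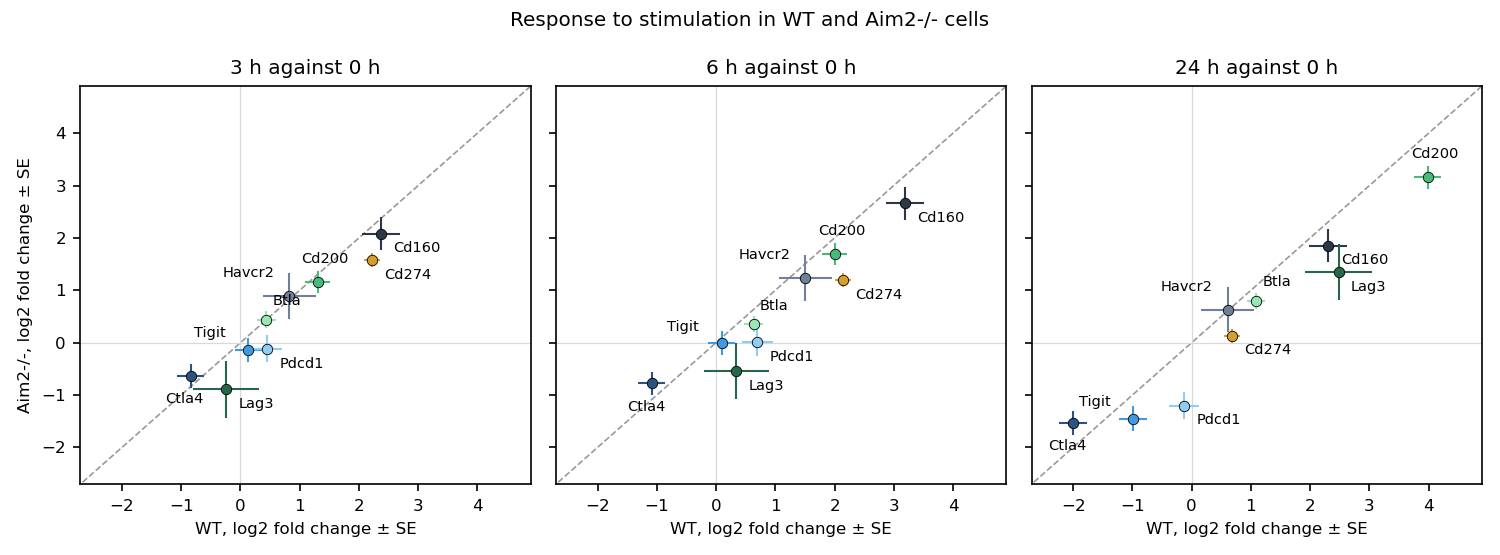
Fitted log2 fold change from 0 h (± SE) in WT cells (horizontal) and Aim2-/- cells (vertical) for each gene at 3, 6 and 24 h, with the dashed line where both are equal. Cd274 lies below the line at 6 h, at 2.14 in WT and 1.19 in Aim2-/- cells, and Cd200 at 24 h, at 3.99 and 3.16.

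Markers of regulatory T cells were measured in the same libraries. Foxp3, the transcription factor that defines regulatory T cells, was at 111, 84.9 and 117 CPM in WT mice and 171, 139.8 and 135 in Aim2-/- mice at 0 h, and Ikzf2, another factor of these cells, at 250.0, 122 and 163 and 303, 221 and 198. The highest value of each came from Aim2-/- mouse 1, which was also highest for 8 of the 9 members at 0 h, all but Btla, and the mouse labelled WT 1 was the highest WT mouse for Ikzf2 and for 8 of the 9, all but Cd160. The summed level of 4 markers (Foxp3, Ikzf2, Il2ra and Nrp1) at 0 h was 311 to 494 in WT and 462 to 630.0 in Aim2-/- cells, with none of the 4 past the test. At 6 h the sum was higher in every mouse than at 0 h, at 1156 to 1473 in WT and 1109 to 1193 in Aim2-/- cells, while Ctla4 had fallen, and at 24 h it was 832 to 909 and 897 to 1092. The 4 markers did not move together, so the sum does not stand for each of them. From 0 to 24 h 1 was called higher and 2 lower in WT cells, and 1 higher and 3 lower in Aim2-/- cells. Between the genotypes at 6 h, 1 of the 3 Aim2-/- sums lay below and the other 2 near the lowest WT sum, and 1 of the 4 markers was called lower in Aim2-/- cells. In bulk RNA a larger share of such cells and more transcript per cell cannot be told apart. The part of these cells, and of the myeloid and B cell markers above, in the genotype differences was not tested. In the fit with a B cell marker score neither Pdcd1 nor Tigit passed at 0 h and Cd274 still did at 6 h. That fit cannot decide this, because the B cell marker sum was higher in every Aim2-/- than every WT library at each time.

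The genes whose log2 CPM over the 24 libraries was most like that of each member, among 12963 named genes compared, are given as 2 or 3 per member. All libraries share the same 4 times, so these values describe the course and carry no test. For Cd160 they were Tnfsf14 (r = 0.98), Map2k3os (r = 0.96) and Sh3bp2 (r = 0.95); Tnfsf14 encodes LIGHT, the cytokine that binds the same receptor as CD160, and Map2k3os is an antisense transcript whose strand assignment in the counting is not given. For Cd274 they were Gbp7 (r = 0.97), Gbp6 (r = 0.97) and Tgtp1 (r = 0.95), which are interferon-inducible GTPases. For Cd200 they were Kif15 (r = 0.99), Ptpn7 (r = 0.98) and Gstz1 (r = 0.98). For Lag3 they were Zbtb32 (r = 0.95) and Dmwd (r = 0.93), the first a zinc finger repressor of activated lymphocytes. For Ctla4 they were Ahnak (r = 0.96), Gem (r = 0.96) and Lmna (r = 0.96), for Tigit Rnf43 (r = 0.97), Syt11 (r = 0.96) and Naip2 (r = 0.96) and for Pdcd1 Tiam1 (r = 0.93), Zeb2 (r = 0.91) and Srxn1 (r = 0.91). For Havcr2 they were Eng (r = 0.93), Samd14 (r = 0.92) and Snx10 (r = 0.92), and for Btla Zfp930 (r = 0.94) and Ints2 (r = 0.91). Among the members, Pdcd1 and Tigit were each other's nearest (r = 0.91).

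The binding partners and opposed activating receptors, a list of 18 genes of which 17 were tested, mostly declined. In WT cells 4 were higher and 9 lower at 24 h than at 0 h, beside 36.6% higher and 34.8% lower of all genes, with a median log2 fold change of -0.90, and in Aim2-/- cells 5 were higher and 10 lower, beside 36.8% and 33.5%, with a median of -0.87. Pdcd1lg2, the second ligand of PD-1, lies 22.8 kb from Cd274 and took a later course, rising by 0.94 ± 0.19 at 3 h and 2.46 ± 0.20 at 24 h in WT cells (adjusted p = 3.9e-10), and by 1.70 ± 0.19 at 24 h in Aim2-/- cells (adjusted p = 7.9e-08). Tnfsf14 rose by 3.19 ± 0.31 in WT and 2.97 ± 0.30 in Aim2-/- cells at 6 h (adjusted p = 2.9e-08 and 9.6e-08). Cd226, the activating rival of TIGIT, rose by 1.97 ± 0.16 and 1.67 ± 0.16 at 24 h (adjusted p = 7.2e-10 and 1.0e-08), against the fall of Tigit. Cd28 and Icos, the costimulatory receptors that lie 114 and 62.1 kb from Ctla4 on chromosome 1, fell with it, Cd28 by 1.38 and 1.41 and Icos by 1.70 and 1.80 on the log2 scale in WT and Aim2-/- cells (adjusted p of at most 1.0e-08).

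Of 12 other inhibitory receptors, 2 were higher and 7 lower at 24 h in WT cells, and 1 and 7 in Aim2-/- cells, beside 36.6% and 34.8% of all genes in WT and 36.8% and 33.5% in Aim2-/- cells, with medians of -1.32 and -1.26. Cd101 fell by 3.56 and 3.06 on the log2 scale, Pecam1 by 2.48 and 1.79, and Vsir, which encodes VISTA, by 2.12 and 2.08 (adjusted p of at most 3.9e-08). At 6 h 3 of the list were higher and 1 lower in Aim2-/- cells, beside 8.78% and 7.01% of all genes. Several of these 12 are mainly genes of myeloid cells. All 5 myeloid markers were fitted above 0 in Aim2-/- cells at 6 h, and 0 passed the test. At that time 3 of the 3 basophil or mast cell markers and 2 of the 5 B cell markers were called higher in Aim2-/- cells. The part of any of these cell types in these differences was not tested. Of 16 cytoplasmic partners, 4 were higher and 5 lower at 24 h in WT cells, and 2 and 7 in Aim2-/- cells, which in WT cells was no more than the shares over all genes just given. Among them Ptpn6, the phosphatase SHP-1, rose by 2.65 ± 0.12 and 2.13 ± 0.11, and Ptpn22, a phosphatase that acts with CSK on LCK, fell by 3.02 and 2.87 on the log2 scale (adjusted p of at most 1.3e-12).

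Of 19 transcription factors linked to checkpoint genes, 10 were higher and 2 lower at 3 h in WT cells, beside 16.2% and 16.4% of all genes, and 7 and 2 in Aim2-/- cells, beside 16.1% and 14.6%. By 24 h 4 were higher and 13 lower in each, beside 36.6% and 34.8% of all genes in WT and 36.8% and 33.5% in Aim2-/- cells. Tbx21 rose by 2.45 ± 0.23 at 3 h and 3.47 ± 0.23 at 24 h in WT cells, and by 1.39 ± 0.22 and 2.28 ± 0.22 in Aim2-/- cells (adjusted p of at most 5.2e-05). Irf4 rose by 2.61 ± 0.21 and 2.00 ± 0.21 at 6 h (adjusted p = 2.2e-09 and 9.6e-08). The orphan nuclear receptors Nr4a1, Nr4a2 and Nr4a3 fell from 0 to 24 h in WT cells by 2.31, 2.94 and 2.00 on the log2 scale. They fell in Aim2-/- cells by 2.48, 3.23 and 2.41 (adjusted p of at most 3.3e-10). Between the genotypes, Batf was higher in Aim2-/- cells at 0 h (0.68 ± 0.13, adjusted p = 0.0077) and at 6 h (0.78 ± 0.13, adjusted p = 0.0037), and Tbx21 was higher at 0 h (0.96 ± 0.22, adjusted p = 0.02). At 6 h Irf4 (-0.80 ± 0.20, adjusted p = 0.016), Nr4a1 (-0.59 ± 0.17, adjusted p = 0.031) and Nr4a3 (-0.61 ± 0.16, adjusted p = 0.02) were lower. These 6 differences also passed without the mouse labelled WT 1, at 0.81 ± 0.12 and 0.86 ± 0.12 for Batf, 1.14 ± 0.26 for Tbx21, -0.81 ± 0.21 for Irf4, -0.66 ± 0.21 for Nr4a1 and -0.65 ± 0.19 for Nr4a3 (adjusted p of 0.001 to 0.049). In the lists above, the genotype calls of Pdcd1lg2 at 0 h and of Lgals9 and Vsir at 6 h were lost without that mouse. Their values were then 0.73 ± 0.23, 0.64 ± 0.23 and -0.57 ± 0.20 (adjusted p = 0.068, 0.077 and 0.064).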

How the data were processed

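Poly(A)-selected, stranded single-end libraries of splenic CD4+ T cells, enriched by immunomagnetic negative selection, were sequenced by the authors and aligned with STAR to GRCm38; the deposited values are raw read counts per gene, 1 column per library. The counting strand setting is not given in the sources used here, and the submitters' processing notes also name DESeq2 and edgeR. All 24 columns matched a label, and no row lacked a gene. Identifiers were matched to GENCODE M21 (54409 of 54446).

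Library totals were 19715161 to 21627018 counts. CPM were computed with TMM-scaled library sizes. The main test was the edgeR 4.0.16 quasi-likelihood F test (two-sided) in R 4.3.3, with 8 group means over 24 libraries, TMM factors, genes kept by filterByExpr with a minimum count of 10, and Benjamini-Hochberg adjustment over all genes tested within each comparison; a gene was called at an adjusted p under 0.05. The standard error is the fold change divided by the square root of F, and the biological coefficient of variation was 18.6%. The labels give a genotype, a number and a time, and the 4 libraries that share genotype and number were taken as 1 mouse. Deviations from the group means correlated at 0.139 to 0.567 in 36 same-mouse pairs and at -0.432 to 0.0742 in 72 pairs of different mice, so the mouse pairs the libraries. Replicate libraries differed by more than counting noise (chi-square per degree of freedom of at least 6.53 in 24 pairs). Without molecular identifiers, the counting error of a single gene was set only against the 3-count floor. The scripts were tested on simulated counts with known changes.

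Alternatives were RLE size factors, library totals, DESeq2 1.42.0, limma-voom (limma 3.58.1), no filter, a mean CPM of at least 1, only the libraries compared, the mouse as a block or random effect, the mouse number as a block, a B cell marker score as a term, and each library or mouse left out. The fits combining a block with the omission of the mouse labelled WT 1 were added after seeing the data. The members, gene lists and markers were chosen with earlier results of these data known. Of the other genes, at most 6 per list were eligible to be named, those called in the most comparisons with ties by fold change, and for each member the 3 genes with the highest Pearson r, of which 2 in all are not reported here. Exon lengths are the union of annotated exons in GENCODE M21, and promoter windows are from RefSeq.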

Additional observations from a re-analysis of the deposited data

Results flagged for a closer look

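These values concern differences between the genotypes in the response to stimulation, given as the Aim2-/- response minus the WT response on the log2 scale. In the edgeR fit with the mouse as a block, the 6 h response differed for Cd274 (-0.96, adjusted p = 0.0098) and Pdcd1 (-0.71, adjusted p = 0.011). The 24 h response differed for Pdcd1 (-1.10, adjusted p = 8.8e-04), Cd200 (-0.85, adjusted p = 0.016) and Lag3 (-1.47, adjusted p = 0.044). With all mice, TMM factors and the filter on low counts, none of these passed without the block, although some other settings without it called Cd274 at 6 h, Cd200 and Pdcd1 at 24 h (no filter) and Lag3 at 24 h (without the mouse labelled WT 1). With the block and without that mouse all 5 passed (adjusted p of 1.8e-04 to 0.011), and so did Lag3 at 6 h and Tigit, Btla and Cd274 at 24 h, which made 3 members at 6 h and 6 at 24 h. The share of all genes called in that fit is not given. With the block and all mice it was 4.68% at 6 h and 2.77% at 24 h.

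For 2 members every WT mouse moved one way and every Aim2-/- mouse the other. The share of all genes that split in this way is not given here, so the count is not read as a result about the members. Lag3 was higher at 6 h than at 0 h in 3 of 3 WT mice and lower in 3 of 3 Aim2-/- mice, with a mean difference of -1.07 between the genotypes, although the mouse labelled WT 1 rose by only 0.06 on the log2 scale. The interaction term for it did not pass without the block (adjusted p = 0.68) or with it (adjusted p = 0.13), and passed with the block and without the mouse labelled WT 1 (-1.32 ± 0.23, adjusted p = 0.0078). Pdcd1 was higher at 3 h than at 0 h in 3 of 3 WT mice and lower in 3 of 3 Aim2-/- mice, with a mean difference of -0.55, and its interaction term at 3 h did not pass (adjusted p = 1).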

How the results depend on the processing

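A set of 79 fitted member values, not all that were fitted, was checked under up to 43 other settings. All 79 kept their direction. The WT value of Pdcd1 from 0 to 24 h was outside this set. It was -0.13 with all mice and changed sign without the mouse labelled WT 1. Of 48 calls for stimulation that were checked, which were not all those made, 36 passed in every setting. None of the 4 genotype calls did. All 57 values of other named genes kept their direction and 48 of their 57 calls passed in every setting. Between the genotypes, the number of members called was 2, 0, 2 and 0 at 0, 3, 6 and 24 h. It was 1 at 0 h and 1 at 6 h with RLE size factors, 1 at 0 h with library totals, 0 at 0 h with only the libraries compared, and 0 at 0 h and 1 at 6 h with a B cell marker score as a term. Without a filter it was 4, 2, 4 and 1, and DESeq2 gave 2, 0, 3 and 1. With the mouse number as a block, which does not pair animals across the genotypes, it was 5, 5, 4 and 2. With the mouse as a random effect it was 3 at 0 h and 3 at 6 h, and without the mouse labelled WT 1 as well 4, 4 and 6 at 0, 3 and 6 h. For these counts and those below, the share of all genes called is given only where stated above. They therefore describe the settings and are not read as results about the members.

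For the interaction at 6 h, the count of 0 became 1 with library totals, DESeq2, no filter, a mean CPM of at least 1 or the B cell score, 2 with the mouse as a replicate block, and 3 with that block and without the mouse labelled WT 1. At 24 h it became 2 without a filter, 3 with the block, and 6 with the block and without the mouse labelled WT 1. With libraries summed by mouse, DESeq2 called 3. Between 3 and 6 h the block gave 5 in WT cells (main count 2), also without the mouse labelled WT 1, and 3 in Aim2-/- cells (main count 1), also without it; there limma-voom gave 3, no filter 2, and the compared libraries alone 0. The block changed the number of members called by less than 1.5 times in the other comparisons, and beyond the calls given with their blocked values it changed no other call of a member. The cause of these changes was not tested.

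Leaving out 1 library or 1 mouse in turn gave 0 to 3 members for WT cells and 0 to 2 for Aim2-/- cells between 3 and 6 h, 3 to 6 for Aim2-/- cells from 0 to 3 h, and 5 to 8 from 6 to 24 h. Between the genotypes it gave 0 to 4, 0 to 3, 0 to 4 and 0 to 1 members at 0, 3, 6 and 24 h, 0 to 1 for the interaction at 6 h and at 24 h, and 0 to 2 for summed libraries. The highest counts at 0, 3 and 6 h came without the mouse labelled WT 1, and the single call at 24 h without that mouse or Aim2-/- mouse 2. At 0 h no member was called without WT mouse 3 or 4 or Aim2-/- mouse 1 or 4, and at 6 h none without WT mouse 4 or the 6 h library of Aim2-/- mouse 1. The count of 3 in Aim2-/- cells at 3 h came without WT mouse 4 or Aim2-/- mouse 2 or 4, and that of 5 from 6 to 24 h without Aim2-/- mouse 4. The call for summed libraries came without the mouse labelled WT 1 (1) or Aim2-/- mouse 2 (2). The lowest member level was well above the 3-count floor. That does not show that counting noise was small for the scarce members. Havcr2, for example, had 65, 49 and 48 counts in WT mice 1, 3 and 4 at 0 h. The part of counting noise in the spread of single members was not tested. Scaling by library totals moved the median of all genes by 0.107 in WT and 0.116 in Aim2-/- cells at 3 h. It moved that median by 0.12 in Aim2-/- cells at 6 h. None of the 79 member values checked changed direction with that scaling.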
